A study of Homo sapiens with 4 samples.

Results

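The lysosomal genes described here are 44 genes that encode lysosomal hydrolases, lysosomal membrane proteins and their soluble cofactors, subunits of the vacuolar proton pump and the TFEB family of transcription factors, out of 18417 genes named on the array. They were chosen by function, as a fixed list of gene symbols, with earlier results of these data known. Each was read from the probe set that was brightest over the 4 arrays among those annotated with that single symbol. All 44 had such a probe set and all 44 passed the filter on dim genes (a mean log2 intensity of at least 6.58). The list holds 9 proteases, 15 hydrolases of glycans, sulfate esters and lipids, 6 membrane proteins, 3 soluble cofactors, 8 proton pump subunits and 3 transcription factors.

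The arrays compared MDA-MB-231 cells, an established triple-negative human breast cancer line, expressing either a non-specific short hairpin RNA (shNS, 2 arrays) or a hairpin against DBC1 (shDBC1, 2 arrays). DBC1 is the product of CCAR2. All cells were grown in serum-supplemented DMEM with no treatment, so both groups carry a hairpin and differ, per the labels, only in its target. The labels name 1 hairpin target per line, and whether each line is a pool or a clone is not given in the sources used here. The design text calls the 2 replicates of each line independent and biological. What a replicate number shares between the lines is not given in the labels.

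The lysosome is the acidic compartment in which cells degrade proteins, glycans and lipids. Its enzymes reach it mostly through the mannose 6-phosphate receptor, and its acidity is set by the V-ATPase, a rotary proton pump with a membrane sector (V0) and an ATP-hydrolysing sector (V1). TFEB, TFE3 and MITF are related helix-loop-helix factors that bind an E-box of the CLEAR type, present in many lysosomal promoters, and they are held in the cytoplasm by mTORC1. Secreted cathepsins are also known as proteases that degrade matrix around invasive breast cancer cells.

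CCAR2 itself read 9.62 and 9.41 in shNS (log2 intensity) and 8.76 and 8.16 in shDBC1; neither shDBC1 reading reached the lower control. In the fit by group alone 0 of 13813 genes tested (0%) passed a limma adjusted p of 0.05, and 475 had an unadjusted p below that value. Of the markers of a mesenchymal breast line 7 of 7 passed the filter, from SPARC (6.79 to 7.37) to CD44 (12.8 to 13.0). Of 8 luminal markers 6 passed, among them KRT19 (10.99 to 11.61), EPCAM (8.39 to 9.61) and GATA3 (8.46 to 9.04), while the receptor genes ESR1 and PGR lay below 6.58 on each array. Of 7 leukocyte and macrophage markers with a probe set, CD14 (8.44 to 9.59), CSF1R (7.22 to 7.59) and ITGAM (6.48 to 6.74) passed, and PTPRC, CD163, CD3E and CD53 did not. Of 6 osteoclast markers ITGB3 (8.19 to 9.81), TNFRSF11A (8.24 to 8.52), MATK (7.22 to 7.57) and OCSTAMP (6.86 to 7.17) passed, and DCSTAMP and CALCR did not. Of 5 endothelial markers PECAM1 (6.65 to 8.23), KDR (6.68 to 7.17) and CDH5 (6.52 to 6.69) passed, and VWF and TEK did not.

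None of the 44 lysosomal genes passed the threshold between shDBC1 and shNS. The median log2 difference over the 44 genes was 0.025, beside 0.0065 over all genes tested, with 20 genes below zero and 24 above. The limma adjusted p was 1 for each of the 44. At an unadjusted p under 0.05 there were 2 lower genes (CTSS and CTSK) and 1 higher (ATP6V0A1), beside 2.57% of all genes tested lower and 0.869% higher. Both shDBC1 arrays lay below both shNS arrays for 7 of the 44 genes, against 13.2% of all genes tested, and above both for 4, against 11.6%. Only CTSS differed by 1.5-fold or more, lower in shDBC1, a size reached by 1.38% of all genes tested in that direction and by 0.376% in the other.

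**Figure D1:**
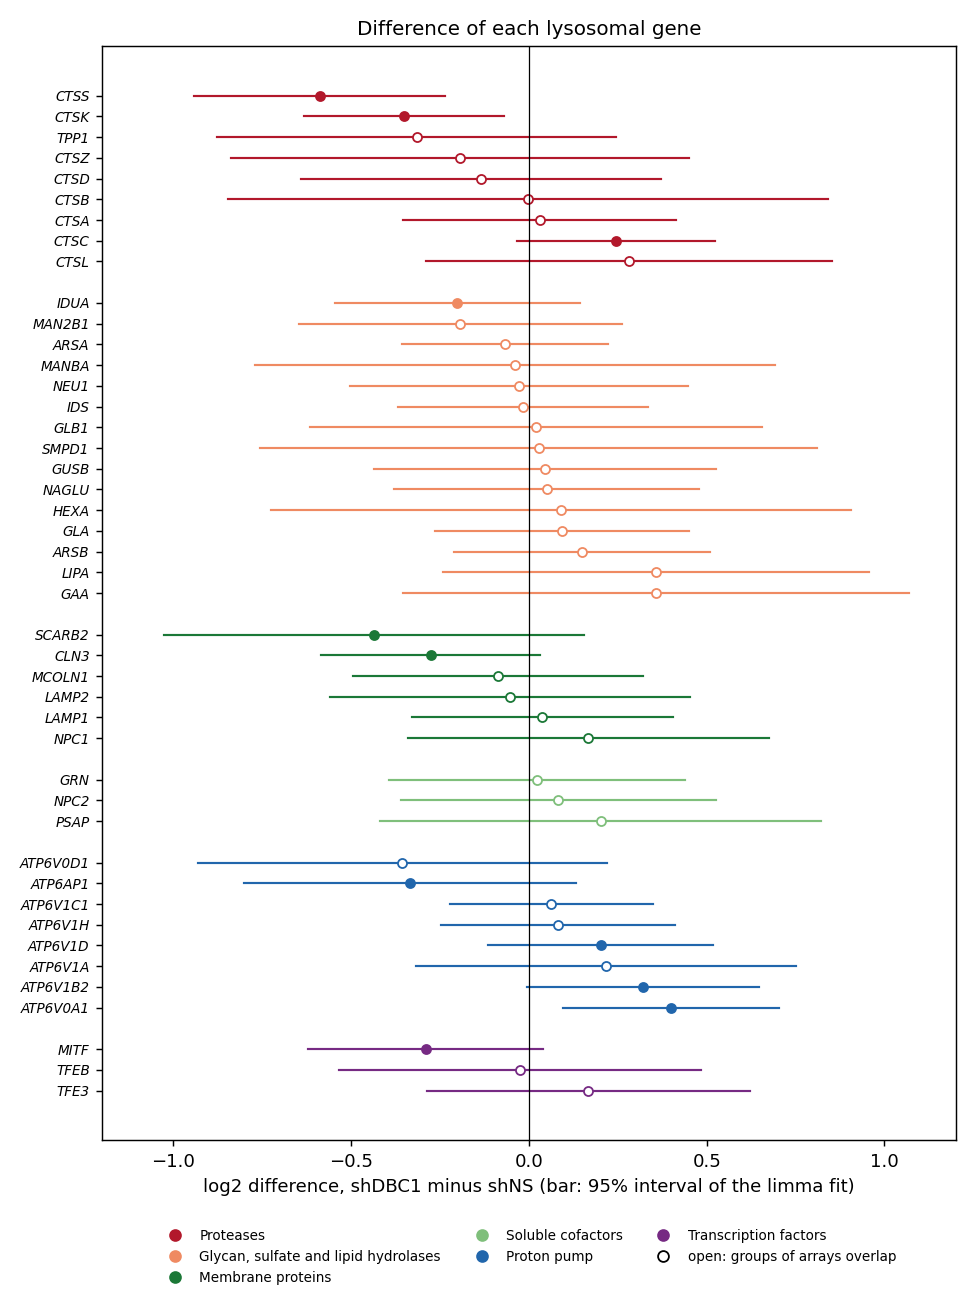
Log2 difference between shDBC1 and shNS (horizontal axis) for the 44 lysosomal genes, coloured by role, with the 95% interval of the limma fit as a bar (2 arrays per group). Filled points mark the 11 genes whose groups of arrays did not overlap; the intervals of CTSS, CTSK and ATP6V0A1 leave out 0 and the other 41 include it.

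The size of the differences was bounded by the fit. The median half-width of the 95% intervals was 0.45 for these genes, beside 0.36 for all genes tested. For 42 of the 44 genes the whole interval lay within a 2-fold change in either direction (1 unit on the log2 scale). The exceptions were SCARB2 (interval -1.03 to 0.16) and GAA (interval -0.35 to 1.07).

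The members varied together between the arrays numbered 1 and 2 of each line. Of the 44 genes, 41 read higher on the shNS array numbered 2 than on that numbered 1, against 48.8% of all genes tested. In shDBC1 37 of the 44 read higher on the array numbered 2, against 48.2%, and 37 did so in both lines, against 33.3%. The median difference between the arrays numbered 2 and 1 was 0.25 in shNS and 0.29 in shDBC1, beside -0.00030 and -0.00070 over all genes tested. These gaps were larger than the median difference between shDBC1 and shNS, and they enter the error of the comparison by group alone. In a limma fit with a block for the replicate number, 113 of all genes tested passed the threshold and 0 of the 44 did. At an unadjusted p under 0.05 that fit had 14 of the 44, beside 11.7% of all genes tested.

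**Figure D2:**
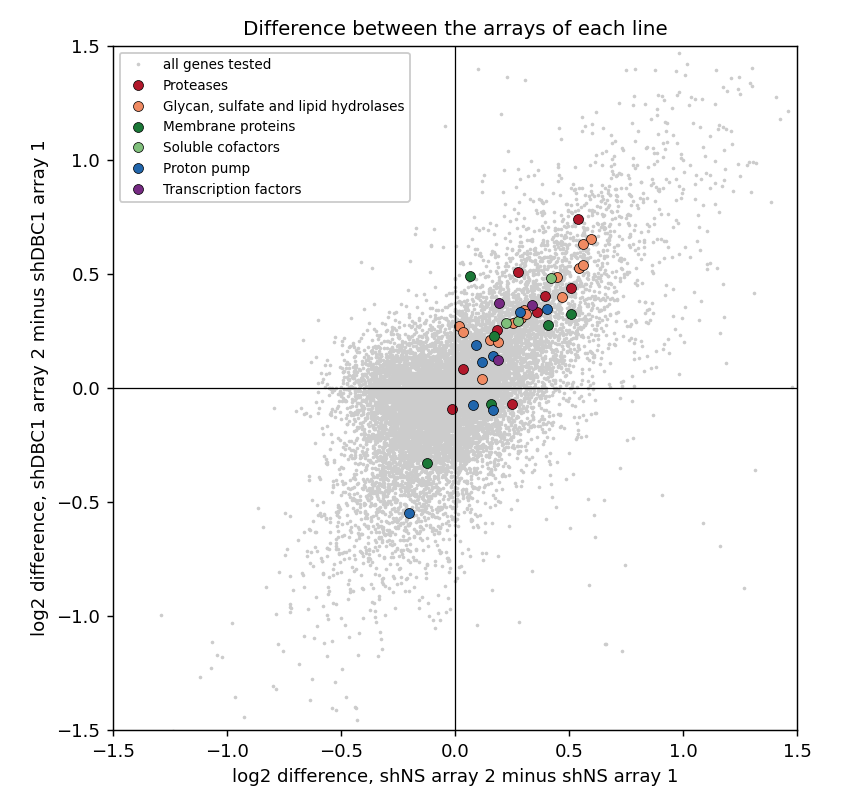
Each point is 1 gene; the horizontal axis is the log2 difference between the shNS arrays numbered 2 and 1 and the vertical axis the same for shDBC1, with 13813 tested genes in grey and the 44 lysosomal genes coloured by role (39 genes lie outside the axes). Lysosomal genes gather in the upper right quadrant, where 37 of the 44 lie.

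All 15 glycan, sulfate and lipid hydrolases read higher on the array numbered 2 in both lines, as did the 3 cofactors and the 3 transcription factors. HEXA and CTSB, chosen after their values were seen, had the largest gaps of the 44 between the arrays of shNS and of shDBC1, respectively. HEXA, the alpha subunit of the enzyme that degrades GM2 ganglioside, read 9.87 and 10.46 in shNS and 9.93 and 10.58 in shDBC1. The arrays of one line thus stood further apart than the means of the lines, and the groups overlapped. CTSB, a cathepsin with endopeptidase and exopeptidase activity, read 11.44 and 11.98 in shNS and 11.34 and 12.08 in shDBC1. The 7 genes without a higher reading on both arrays numbered 2 were CTSK, CTSS, CLN3, MCOLN1, ATP6V0D1, ATP6V1C1 and ATP6V1D. The cause of the gap between the arrays was not tested.

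Among the 9 proteases the median difference was -0.13, with 6 below zero; leaving out 1 array moved it to -0.31 (shNS 1 or shDBC1 2 left out), 0.061 (shNS 2) or 0.033 (shDBC1 1). CTSS, cathepsin S, an elastin-cleaving cysteine protease that also trims the MHC class II invariant chain, read 8.34 and 8.59 in shNS and 7.91 and 7.84 in shDBC1. Both shDBC1 arrays were below both controls, a difference of -0.59 (SE 0.13, interval -0.94 to -0.24). CTSK, cathepsin K, the collagen-degrading protease of osteoclasts, read 6.93 and 6.92 in shNS and 6.62 and 6.52 in shDBC1. The control arrays agreed closely and both shDBC1 arrays were lower, by -0.35 (SE 0.11, interval -0.63 to -0.07). The gene is dim, with 1 shDBC1 array below the filter level, so the size of this difference is uncertain. CTSS and CTSK are neighbouring genes in RefSeq's GRCh38.p14 annotation. Both are best known from myeloid cells. Of the myeloid markers, CD14 read 8.44 and 9.59 in shNS and 8.56 and 9.46 in shDBC1. CSF1R read 7.37 and 7.59 against 7.22 and 7.38, and ITGAM 6.74 and 6.48 against 6.66 and 6.65. Each had overlapping groups, while CD163 and PTPRC were below the filter level on every array. The 4 osteoclast markers that passed the filter had differences above zero, MATK with both shDBC1 arrays higher. The labels name no cells but MDA-MB-231 for these arrays, so the markers above were read in 1 cell line. The source of the CTSS and CTSK differences was not tested.

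CTSC, the dipeptidyl peptidase that activates granule serine proteases, went the other way. It read 10.87 and 10.90 in shNS and 11.09 and 11.17 in shDBC1, with both shDBC1 arrays above both controls. Its difference was 0.25 (SE 0.11, interval -0.03 to 0.52). CTSL, cathepsin L, chosen after its values were seen, had a difference of 0.28 (SE 0.22) with overlapping groups, at 9.67 and 9.95 in shNS and 9.83 and 10.34 in shDBC1. TPP1, a tripeptidyl peptidase mutated in a form of Batten disease, read 10.97 and 11.37 in shNS and 10.65 and 11.06 in shDBC1, a difference of -0.32 (SE 0.21). Its groups overlapped, since the first control array lay below the second shDBC1 array. CTSD, the aspartic protease cathepsin D, also chosen after its values were seen, differed by -0.13 (SE 0.19). CTSA, CTSB and CTSZ had overlapping groups as well.

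The glycan, sulfate and lipid hydrolases had a median difference of 0.027, with 6 of 15 below zero and 14 of 15 with overlapping groups. Leaving out shNS 1 or shDBC1 2 gave a median of -0.13, leaving out shNS 2 gave 0.20 and leaving out shDBC1 1 gave 0.23. IDUA, which cleaves iduronic acid from heparan and dermatan sulfate, was the exception, at 9.45 and 9.48 in shNS and 9.14 and 9.38 in shDBC1. Both shDBC1 arrays were lower, and the difference was -0.20 (SE 0.13, interval -0.55 to 0.14). LIPA, lysosomal acid lipase, read 10.03 and 10.50 in shNS and 10.42 and 10.82 in shDBC1, a difference of 0.36 (SE 0.23). GAA, acid alpha-glucosidase, which degrades lysosomal glycogen, had a difference of equal size (0.36, SE 0.27), at 8.96 and 9.50 against 9.33 and 9.85. For both genes the second control array lay above the first shDBC1 array, so the groups overlapped. MAN2B1, lysosomal alpha-mannosidase, differed by -0.19 (SE 0.17), at 10.55 and 10.84 against 10.35 and 10.66, also with overlapping groups. The remaining 11 (GLA, GLB1, GUSB, HEXA, IDS, NAGLU, ARSA, ARSB, MANBA, NEU1 and SMPD1) lay between -0.07 and 0.15. GUSB shares sequence with copies elsewhere in the genome, and 7 further probe sets name it together with other genes. They were not used, so its value is uncertain.

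**Figure D3:**
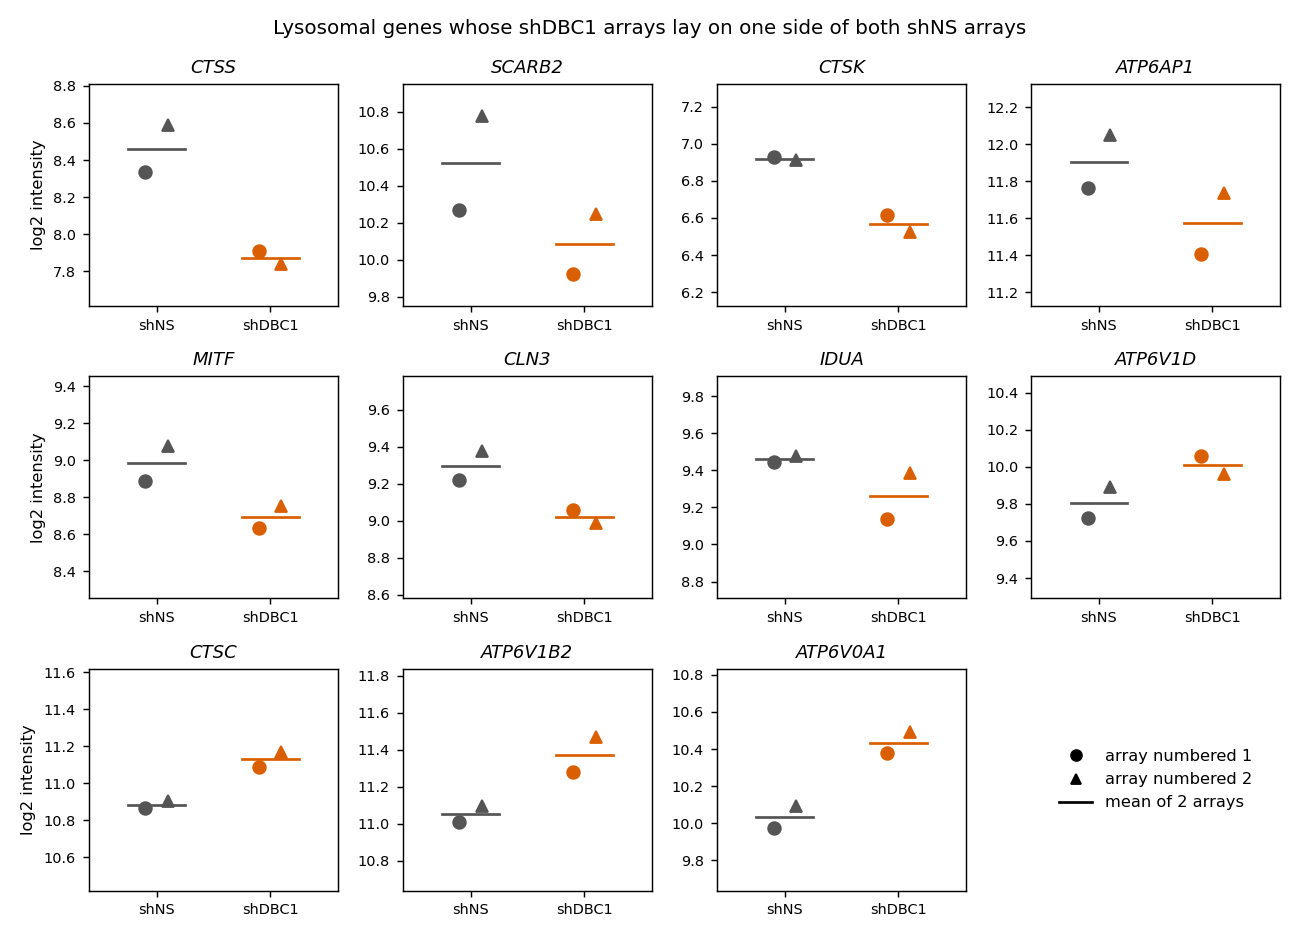
Log2 intensity on each array (vertical axis, each panel spanning 1.2 units) for the 11 lysosomal genes whose shDBC1 arrays both lay on one side of both shNS arrays; circles are arrays numbered 1, triangles arrays numbered 2, and lines the means of 2 arrays. The 7 lower genes run from CTSS to IDUA and the 4 higher from ATP6V1D to ATP6V0A1.

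Of the 6 membrane proteins 4 were below zero, with a median of -0.070, and the groups did not overlap for SCARB2 and CLN3. SCARB2 (LIMP-2), the receptor that carries glucocerebrosidase to the lysosome, read 10.27 and 10.78 in shNS and 9.93 and 10.25 in shDBC1. The second shDBC1 array lay just under the first control, and the difference was -0.44 (SE 0.22). CLN3, a membrane protein mutated in juvenile Batten disease, read 9.22 and 9.38 in shNS and 9.06 and 8.99 in shDBC1, a difference of -0.28 (SE 0.12, interval -0.58 to 0.03). Both its shDBC1 arrays were lower. NPC1, which moves cholesterol out of the lysosome, had overlapping groups, at 11.55 and 11.61 in shNS and 11.50 and 11.99 in shDBC1 (difference 0.17, SE 0.19). MCOLN1, the calcium channel TRPML1, read 10.75 and 10.62 in shNS and 10.76 and 10.43 in shDBC1 (difference -0.09, SE 0.15). The heavily glycosylated lining proteins LAMP1 and LAMP2, chosen after their values were seen, differed by 0.04 (SE 0.14, interval -0.33 to 0.40) and -0.05 (SE 0.19, interval -0.56 to 0.45).

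The soluble cofactors were all 3 above zero, with a median of 0.082 and overlapping groups, and the median was below zero when shNS 1 (-0.057) or shDBC1 2 (-0.066) was left out. PSAP, the precursor of the saposins that help lipid hydrolases reach their substrates, read 11.72 and 12.14 in shNS and 11.89 and 12.37 in shDBC1 (difference 0.20, SE 0.23). NPC2, the cholesterol carrier that hands over to NPC1, differed by 0.08 (SE 0.17), at 12.28 and 12.55 against 12.35 and 12.64. GRN, progranulin, differed by 0.02 (SE 0.16), at 12.51 and 12.74 against 12.50 and 12.79. In each the gap between the arrays of a line was larger than the difference between the lines.

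The proton pump genes had a median difference of 0.14, with 6 of 8 above zero, beside 52.2% of all genes tested. The median stayed above zero with any 1 array left out, from 0.020 with shNS 1 left out to 0.22 with shNS 2 left out. Of these 8 genes 3 were higher without overlap and 1 lower, beside 11.6% and 13.2% of all genes tested. Among the 11 other pump subunits tested, outside this list, the median was -0.052, with 6 below zero, 2 higher without overlap and 1 lower. ATP6V0A1, an isoform of the membrane subunit that forms the proton path, read 9.98 and 10.09 in shNS and 10.38 and 10.49 in shDBC1. Both shDBC1 arrays were above both controls by a similar margin, a difference of 0.40 (SE 0.12, interval 0.09 to 0.70), or 1.32-fold. ATP6V1B2, the ubiquitous B subunit of the ATP-hydrolysing ring, read 11.01 and 11.10 against 11.28 and 11.47, a difference of 0.32 (SE 0.12, interval -0.004 to 0.65). ATP6V1D, part of the central rotor, read 9.72 and 9.89 against 10.06 and 9.96, a difference of 0.20 (SE 0.12). In both genes both shDBC1 arrays were the higher ones. NAGLU, the neighbour of ATP6V0A1 in RefSeq's annotation, had overlapping groups.

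Of the 8 pump genes, the 2 below zero were ATP6AP1 and ATP6V0D1. ATP6AP1, the accessory subunit Ac45 that takes part in pump assembly and sorting, read 11.76 and 12.05 in shNS and 11.41 and 11.74 in shDBC1. The second shDBC1 array lay just under the first control, and the difference was -0.33 (SE 0.18, interval -0.80 to 0.13). ATP6V0D1, which couples the V0 sector to the rotor, was chosen after its values were seen. It read 11.62 and 11.42 in shNS and 11.43 and 10.89 in shDBC1, a difference of -0.36 (SE 0.22), with the first shDBC1 array just above the second control. ATP6V1A, ATP6V1C1 and ATP6V1H lay between 0.06 and 0.22 with overlapping groups.

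Among the transcription factors MITF was the only one whose groups did not overlap. MITF, the member of the family best known from melanocytes and osteoclasts, read 8.89 and 9.08 in shNS and 8.63 and 8.75 in shDBC1, a difference of -0.29 (SE 0.13, interval -0.62 to 0.04). TFEB read 8.28 and 8.61 in shNS and 8.24 and 8.60 in shDBC1. The groups overlapped, and the difference was -0.02 (SE 0.19, interval -0.53 to 0.48). TFE3 read 10.87 and 11.06 against 10.94 and 11.32, a difference of 0.17 (SE 0.17) with overlapping groups. These are transcript levels, and the arrays do not measure where the proteins are in the cell.

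The E-box of the CLEAR type was searched for in RefSeq promoter windows of 300 bases (250 before to 50 after the gene's start, GRCh38.p14), of which 24 members had 1 window, 7 had several and were left out, and 13 had none in the table. The core CACGTG, which reads the same on both strands, was in 7 of the 24 windows (29.2%), against 10.1% of 7885 tested genes with 1 window and 7.28% of 22114 windows in all. The longer palindrome TCACGTGA, which contains the core, was in 5 of the 24 (20.8%), against 1.89% of the tested genes and 1.02% of all windows. The full CLEAR palindrome GTCACGTGAC, which contains both, was in 2 (GAA and MCOLN1), against 0.710% of the tested genes and 0.348% of all windows. In the other pathway genes described below, the core was in 21 of 72 windows (29.2%). There TCACGTGA was in 10 (13.9%) and the full palindrome in 6 (8.33%). This E-box is known from many lysosomal promoters, so these shares describe the lists and are no result of the arrays. The 5 windows with TCACGTGA are shown from 100 bases before to 10 after the start (200 before for LAMP1), 5′ to 3′ on the gene's strand, because they hold the recognition sequence of the factors measured above. Capitals mark each core CACGTG.
LAMP1 (chr13:113297039-113297248, plus strand): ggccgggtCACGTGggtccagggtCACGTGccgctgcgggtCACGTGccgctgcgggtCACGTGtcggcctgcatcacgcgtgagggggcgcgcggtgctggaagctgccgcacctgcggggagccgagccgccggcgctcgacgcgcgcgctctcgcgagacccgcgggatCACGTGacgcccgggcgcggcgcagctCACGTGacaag
GAA (chr17:80101481-80101590, plus strand): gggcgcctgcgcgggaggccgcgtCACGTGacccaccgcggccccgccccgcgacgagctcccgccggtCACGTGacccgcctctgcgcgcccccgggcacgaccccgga
MCOLN1 (chr19:7522524-7522633, plus strand): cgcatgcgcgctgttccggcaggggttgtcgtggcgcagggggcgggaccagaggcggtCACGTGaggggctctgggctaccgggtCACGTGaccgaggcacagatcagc
CTSA (chr20:45891235-45891344, plus strand): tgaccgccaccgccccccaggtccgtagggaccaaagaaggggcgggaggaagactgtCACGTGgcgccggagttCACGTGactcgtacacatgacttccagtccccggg
ATP6V0D1 (chr16:67481148-67481257, minus strand): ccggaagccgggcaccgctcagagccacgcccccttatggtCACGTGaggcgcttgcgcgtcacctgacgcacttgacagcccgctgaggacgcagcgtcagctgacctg

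LAMP1 carried 6 copies of the core, GAA, MCOLN1 and CTSA 2 each and ATP6V0D1 1. The 7 members with the core had a median log2 difference of -0.028, with 4 below zero and 3 above, beside 0.027 for the 17 members with a window and no core. Over the tested genes the medians were 0.025 with the core and 0.005 without. Neither LAMP1, with the most copies, nor the other 4 genes shown had groups of arrays that stood apart. A match describes these letters only, and binding was not measured.

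Genes of the same pathway outside the 44, from lists of other lysosomal, sorting, regulatory and autophagy genes, gave 126 tested genes of 144 listed. The lists, too, were chosen with earlier results of these data known. The median difference of the 126 genes was 0.014, with 58 below zero and 68 above, and 0 passed the threshold. At an unadjusted p under 0.05 4 were lower and 1 higher, beside 2.57% and 0.869% of all genes tested. The groups did not overlap for 13 lower and 14 higher genes, near the 13.2% and 11.6% of all genes tested. The shNS array numbered 2 was the higher control for 91 of the 126, and among the 31 genes listed as other hydrolases for 28, with a median gap of 0.40.

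**Figure D4:**
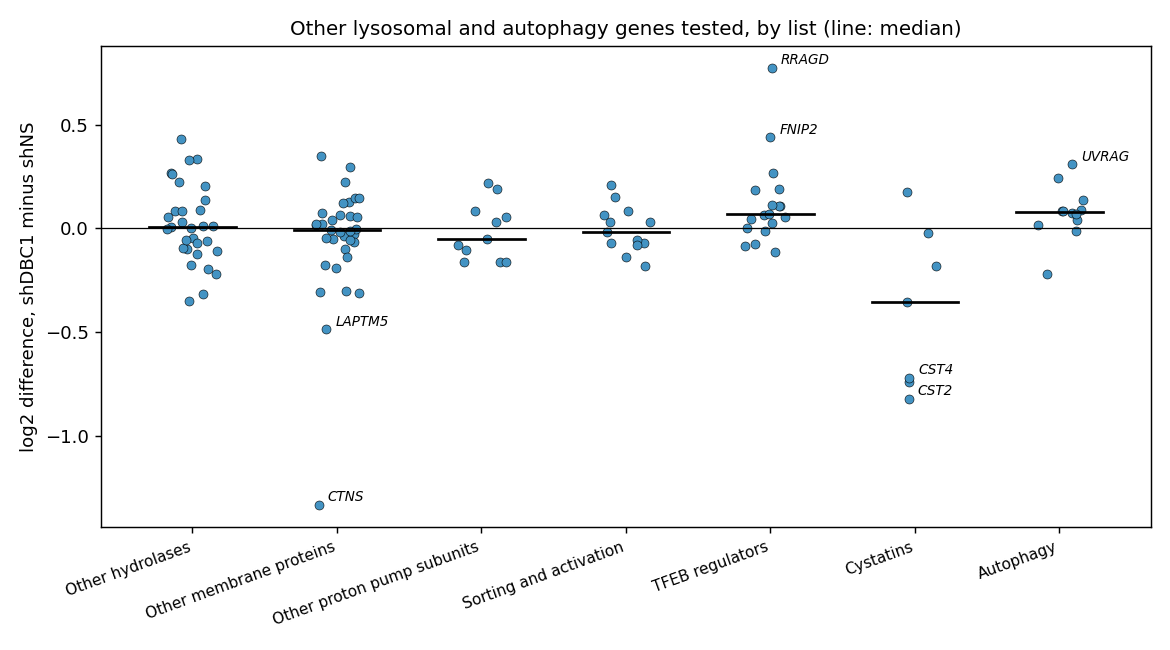
Log2 difference between shDBC1 and shNS (vertical axis) for the 126 tested genes of 7 pathway lists; each point is 1 gene, placed at random within its list, and the line is the list's median. CTNS lies lowest at -1.33 and RRAGD highest at 0.77.

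CTNS, the lysosomal cystine exporter, had the largest difference among these lists and the 44 genes, at 9.44 and 9.48 in shNS and 8.13 and 8.13 in shDBC1 (-1.33, SE 0.10), with a limma adjusted p of 0.589. In the same list of other membrane proteins, 19 of 34 were below zero and the median was -0.0094. LAMP3, an inducible lysosomal protein, differed by -0.31 (SE 0.10), at 7.10 and 7.08 against 6.76 and 6.80. LAPTM5, a lysosomal protein best known from leukocytes and chosen after its values were seen, read 11.32 and 11.63 in shNS and 10.81 and 11.16 in shDBC1 (-0.49, SE 0.18). Both shDBC1 arrays were lower for each of the 3 genes.

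The list of other hydrolases, which also holds genes that are not hydrolases, among them both named here, had a median of 0.0089 with 14 of 31 below zero. HGSNAT, the membrane acetyltransferase of heparan sulfate breakdown, read 10.70 and 10.99 in shNS and 10.44 and 10.55 in shDBC1 (-0.35, SE 0.14), and EPDR1 differed by -0.32 (SE 0.11). Other pump subunits had a median of -0.052 with 6 of 11 below zero. ATP6V1F, a subunit of the rotor, differed by 0.19 (SE 0.11) and ATP6V0E2, a small membrane subunit, by 0.22 (SE 0.13), both with shDBC1 arrays above the controls. Sorting and activation genes had a median of -0.018 with 7 of 13 below zero, with GNPTG, a subunit of the enzyme that makes the mannose 6-phosphate tag, at -0.18 and the adaptor GGA2 at 0.15.

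Of 18 tested genes of the mTORC1 and calcineurin pathways upstream of TFEB, 14 were above zero, beside 52.2% of all genes tested, with a median of 0.068. Both shDBC1 arrays lay above both controls for 5 of them, beside 11.6% of all genes tested. These counts describe a list chosen with earlier results of these data known. The median was 0.070 with shNS 1 left out, but LAMTOR2, LAMTOR3, LAMTOR5 and RHEB were no longer above zero. Their shDBC1 means were 8.95, 9.13, 9.67 and 11.91, against 9.04, 9.26, 9.74 and 11.98 on shNS 2. The same genes turned with shDBC1 2 left out. The remaining shDBC1 array read 8.81, 9.04, 9.60 and 11.81 for these genes, against shNS means of 8.90, 9.06, 9.62 and 11.89. With shDBC1 1 left out MTOR, RPTOR and MLST8 turned, at 9.55, 9.51 and 10.18 against shNS means of 9.86, 9.55 and 10.21. MTOR and MLST8 also turned with shNS 2 left out. FNIP2, a partner of folliculin, read 7.96 and 8.09 in shNS and 8.46 and 8.46 in shDBC1, a difference of 0.44 (SE 0.11, interval 0.15 to 0.73). Both shDBC1 arrays were higher. RRAGD, a Rag GTPase that recruits mTORC1 to the lysosome and is itself a known TFEB-family target, read 8.91 and 9.83 in shNS and 9.82 and 10.47 in shDBC1. Its difference was 0.77 (SE 0.38, interval -0.24 to 1.79), and the first shDBC1 array lay just below the second control, so the groups overlapped. Its difference was 0.31 with shNS 1 left out, 0.45 with shDBC1 2 left out and 1.23 with shNS 2 left out. FLCN, folliculin, and FNIP1, both chosen after their values were seen, differed by 0.27 (SE 0.15) and 0.19 (SE 0.11).

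Cystatins, the inhibitors of cysteine cathepsins, had 6 of 7 tested genes below zero and a median of -0.36, which became -0.53 with shNS 1 left out, -0.18 with shNS 2 left out and -0.10 with shDBC1 1 left out. CST6, cystatin M, read 8.61 and 8.96 in shNS and 8.39 and 8.48 in shDBC1 (-0.36, SE 0.16), with both shDBC1 arrays lower. CST4 read 10.55 and 11.63 in shNS and 9.91 and 10.83 in shDBC1 (-0.72, SE 0.48). CST1 and CST2, chosen after their values were seen, differed by -0.74 (SE 0.51) and -0.82 (SE 0.56). These 3 are close sequence copies, so their values are not independent and the share of each is uncertain, and their arrays overlapped between the lines. With 1 array left out CST4 ranged from -1.26 to -0.18, CST1 from -1.38 to -0.10 and CST2 from -1.43 to -0.22; the smallest sizes came with shNS 2 left out for CST4 and CST2 and with shDBC1 1 left out for CST1.

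Autophagy genes had 10 of 12 above zero and a median of 0.078, which became -0.033 with shNS 1 left out. UVRAG, which takes part in autophagosome and endosome maturation, read 9.66 and 9.83 in shNS and 9.98 and 10.12 in shDBC1 (0.31, SE 0.13), with both shDBC1 arrays higher. SQSTM1, the autophagy receptor p62, differed by 0.24 (SE 0.19), at 11.50 and 11.73 against 11.65 and 12.06, with overlapping groups.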

How the data were processed

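The data are 4 Affymetrix Human Gene ST arrays of MDA-MB-231 RNA, 2 shNS and 2 shDBC1, grouped by the labels' titles. The deposited values are log2 intensities, 1 per probe set, made by the authors with GCOS and RMA (background correction, normalisation between arrays and summary of probes), per the submitters' processing notes. No source used here gives a version, filter or genome build. The log2 scale was inferred from the range, 2.52 to 14.1.

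Of 33297 probe sets, 19460 carried 1 gene symbol, 1754 several, and 12083 are unnamed in the annotation used. Symbols were checked by gene identifier against RefSeq (19429 matched, 0 changed). The brightest probe set stood for each of 18417 genes, and genes below the 25th percentile (6.58) were not tested, leaving 13813. The lines were compared in R 4.3.3 by limma 3.58.1 (a linear model with group as its term and empirical Bayes moderation, two-sided, Benjamini-Hochberg adjustment over all genes tested, threshold 0.05), with 2 residual and 2.60 prior degrees of freedom. The procedure was run on simulated data in which the arrays varied independently. That run does not show which changes would be recovered where same-numbered arrays vary together. Precision is limited by 2 arrays per group, and p-values measure the spread between these arrays. RMA removes any change common to every gene and compresses folds of dim genes.

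Members and lists were chosen with earlier results of these data known. Genes were named by a rule: TFEB, TFE3 and MITF, members whose groups did not overlap, up to 4 members per role and up to 2 genes per other list by the smallest p, CCAR2 and CTNS. Levels were not compared between genes. Alternatives changed the filter, the normalisation, the probe set rule, the variance prior, a replicate block and each array in turn.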

Additional observations from a re-analysis of the deposited data

How the results depend on the processing

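No lysosomal gene passed the threshold under any alternative, the smallest limma adjusted p being 0.0754 with a replicate block. Of the 27 members given with a difference, the 26 that could be run in all 7 alternatives with every array kept their direction, as did CTSK in the 6 that test it (the 50th percentile filter removes it), and 10 turned direction in at least 1 of the 4 fits that leave out an array. Replicate numbers are shared by the lines only as numbers. Same-numbered arrays deviated together (correlation 0.653 across genes). Over all probe sets shNS 1 correlated at 0.9955 with shDBC1 1, and shNS 2 at 0.9932 with shDBC1 2. Within a line the correlation was 0.9920 for shNS and 0.9915 for shDBC1. With only 2 numbers this does not show pairing, and whether the arrays are paired was not tested. With a replicate block 113 genes passed (19 higher, 94 lower) and 1612 had an unadjusted p under 0.05 (11.7% of genes), among them 14 members, 8 lower and 6 higher; in the other pathway lists 1 other membrane protein (CTNS, -1.33), 1 TFEB regulator (RRAGD, 0.77) and 2 cystatins (CST2, -0.82, and CST4, -0.72) passed, as did CCAR2 (-1.06). Members higher at an unadjusted p under 0.05 numbered 2 with no filter, with repeated quantile normalisation and with a trended prior, and members lower numbered 1 under the 50th percentile filter. Among all genes, in either direction, 584, 497, 469 and 360 had such a p under these alternatives, in the same order. The filters change how many genes are tested, and shares by direction are not given. The member counts under these alternatives can therefore not be read against a background share. The median over all members was 0.0049 after median centring.

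Leaving out 1 array left the arrays of different number unbalanced. The median over all members ranged from -0.109 (without the second shDBC1 array) to 0.158 (without the first), that of the membrane proteins from -0.152 to -0.0124 and that of the transcription factors, and of TFEB, from -0.207 to 0.157. The list of other hydrolases ranged from -0.196 to 0.255, the other membrane proteins from -0.0763 to 0.0571, the other pump subunits from -0.0671 to 0.00400 and the sorting genes from -0.0179 to 0.0506. Medians of further lists stand beside their results, for some lists not with each array left out. Members with an unadjusted p under 0.05 ranged from 0 to 2 lower and from 0 to 1 higher, and all genes from 200 to 555. Members whose groups did not overlap ranged from 8 to 22 lower, highest without the second shDBC1 array (16 without the first shNS array), and from 4 to 25 higher, highest without the first shDBC1 array (19 without the second shNS array). With 1 array against 2, 28.9% of all genes tested lay lower without the second shDBC1 array and 28.8% higher without the first. Without the first shNS array, where 16 members lay lower and 4 higher, the shares of all genes tested were 30.7% and 33.5%. Without the second shNS array they were 31.8% lower and 28.4% higher. The ranges of the other members that turned were -0.315 to 0.0458 for CTSD, -0.120 to 0.166 for GRN, -0.0773 to 0.153 for LAMP1, -0.257 to 0.150 for LAMP2, -0.252 to 0.0787 for MCOLN1, -0.0777 to 0.413 for NPC1, -0.0657 to 0.230 for NPC2, -0.0404 to 0.444 for PSAP and -0.0197 to 0.354 for TFE3. The cause was not tested. How far signals stood above background could not be assessed from the deposited values used here.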
